A study of Mus musculus with 16 samples.

Results

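The 8 genes followed here belong to the leukaemia inhibitory factor (LIF) pathway: the ligand Lif, the receptor chains Lifr and Il6st, the kinase Jak1, the transcription factor Stat3, the inhibitors Socs2 and Socs3, and Pim1, a kinase gene known as a target of Stat3. They were chosen by name from the expression table, and 8 of its 27807 genes carry these names, 1 row for each. All 8 passed the filter on low values, a mean of at least 10 normalised counts, as did 16124 genes in all.

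LIF binds a receptor made of Lifr and gp130, the product of Il6st. The bound receptor activates JAK kinases, chiefly Jak1, and these phosphorylate Stat3, which then enters the nucleus and switches on its targets. Socs3 is one of these targets, and its protein blocks the receptor in turn. Mouse embryonic stem cells in serum are kept undifferentiated by this pathway, and aggregation in medium without LIF, followed by retinoic acid, leads them towards neurons. RNA levels do not report phosphorylation, so the activity of the pathway itself was not measured here.

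Poly-A RNA was sequenced from mouse ES cells and embryoid bodies in 16 libraries. The genotype was Taf4+/+ (WT) or Taf4-/- (KO), and each was sampled as ES cells grown on inactivated embryonic fibroblast feeders with LIF and serum (ES), as embryoid bodies not yet given retinoic acid (EB4), 1 day into that treatment (EB5), and at the end of sampling (EB8), which the labels call neural precursors. Taf4a encodes a subunit of TFIID, the factor that brings the transcription machinery to promoters, and its paralogue Taf4b was left in place in both genotypes. Each of the 8 groups held 2 libraries, and per the study 2 WT and 2 KO lines had been derived from blastocysts of crosses of heterozygous mice. The labels do not say which library came from which line, so p-values measure the spread between these libraries.

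Several libraries stood apart or carried levels that went with their labels only in part. The depth was 32631020 to 40711826 reads in genes in the 4 ES libraries and 22442118 to 27685306 in the 12 embryoid body libraries, and a difference of ES from a later stage cannot be told apart from a possible difference of sequencing run. The gene-level count of Taf4a was 1591 to 1960 in the WT and 1973 to 2400 in the KO libraries, which is no check of the genotype, since the null allele lacks only part of the gene. WT ES replicate 2 had no read of the Y-linked gene Ddx3y, against 173.6 to 1237 normalised counts in the other 7 WT libraries and 0 to 35.9 in the 8 KO libraries. Ddx3y thus went with genotype in all but this library. An effect of Taf4a therefore cannot be told apart from a difference of line or of the Y chromosome. The genes of chromosome X had a median log2 level of 0.47 relative to the mean of all libraries in WT ES replicate 2 and of 0.35 to 0.54 in the 4 KO replicate 2 libraries, against -0.25 to -0.16 in the other 11. Those of chromosome 8 stood at 0.40 to 0.41 in the 3 WT embryoid body libraries of replicate 1, against -0.16 to 0.03 in the other 13. None of the 8 genes lies on chromosome 8 or X. By Ddx3y and chromosome X, WT ES replicate 2 differed from the WT embryoid body libraries. Neither WT ES library had the chromosome 8 level of those 3. A change from WT ES to a later WT stage therefore cannot be told apart from a difference of line. The same limit holds for a difference between the genotypes in a change from ES. In the 4 libraries labelled KO replicate 1, the genes of chromosome 11, which carries Lif, Stat3 and Socs3, had a median level of 0.18 to 0.28 on the same scale, against -0.13 to 0.03 in the other 12. Centring each chromosome changed no call for Lif, Stat3 or Socs3.

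The label of the last stage was checked against marker genes. The neural progenitor gene Dbx1 stood at 4360 and 3448 normalised counts in the WT libraries of EB8 and at 0 and 2.1 in those of KO, and the neuronal gene Dcx at 4946 and 6972 against 61.2 and 88.4. Over 6 pluripotency markers the summed count at EB8 was 4801 and 6533 for WT, 29904 and 30086 for KO, with none of them at 0. Sox2 made up most of the WT sums and overlapped between the genotypes (3950.5 and 5240.9 in WT, 6517.1 and 3904.1 in KO). The other listed pluripotency markers were higher in KO without overlap. Over 5 of 6 listed neural progenitor markers it was 26729 and 30394 for WT, 4828 and 4848 for KO. The KO libraries of this stage thus went against their label, and they are called KO EB8 by genotype and stage. Among the ES libraries, WT ES replicate 1 stood apart in these lists. Its pluripotency sum was 69599, against 105386 to 119065 in the other ES libraries. Its neural progenitor sum was 9498, against 3003 to 5442. Nanog stood at 6242 there against 16742 to 22357, while Pou5f1, at 29930, lay within the range of the others. In bulk RNA, more cells of a type and more RNA per cell cannot be told apart.

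Divided by exon length, Pim1 was the most abundant of the 8 genes in every group, from 696 (WT EB8) to 2546 (WT ES) normalised counts per kilobase. In WT ES it was followed by Socs3 (481), Il6st (450.3), Stat3 (311), Jak1 (278), Socs2 (227), Lifr (144.5) and Lif (94.5). Socs3, Il6st, Stat3, Jak1 and Socs2 each overlapped with their neighbour in this order. Pim1 stood apart from all others, and Lifr and Lif each stood apart from the gene next above. The WT ES libraries of Socs3 spanned 94.04 to 867, however. The lower value was below both Lifr libraries (134.8 to 154.2) and within the range of Lif (85.23 to 103.8), so the place of Socs3 is uncertain. In WT EB8 the order was Pim1, Il6st (437), Jak1 (383), Socs3 (219), Stat3 (216), Lifr (78.6), Socs2 (39.5) and Lif (29.9), with overlap between Socs3 and Stat3 and between Socs2 and Lif. In KO EB8, Lif (94.0) stood above Lifr (88.6) and Socs2 (50.8), although the libraries of Lif and Lifr overlapped.

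**Figure D1:**
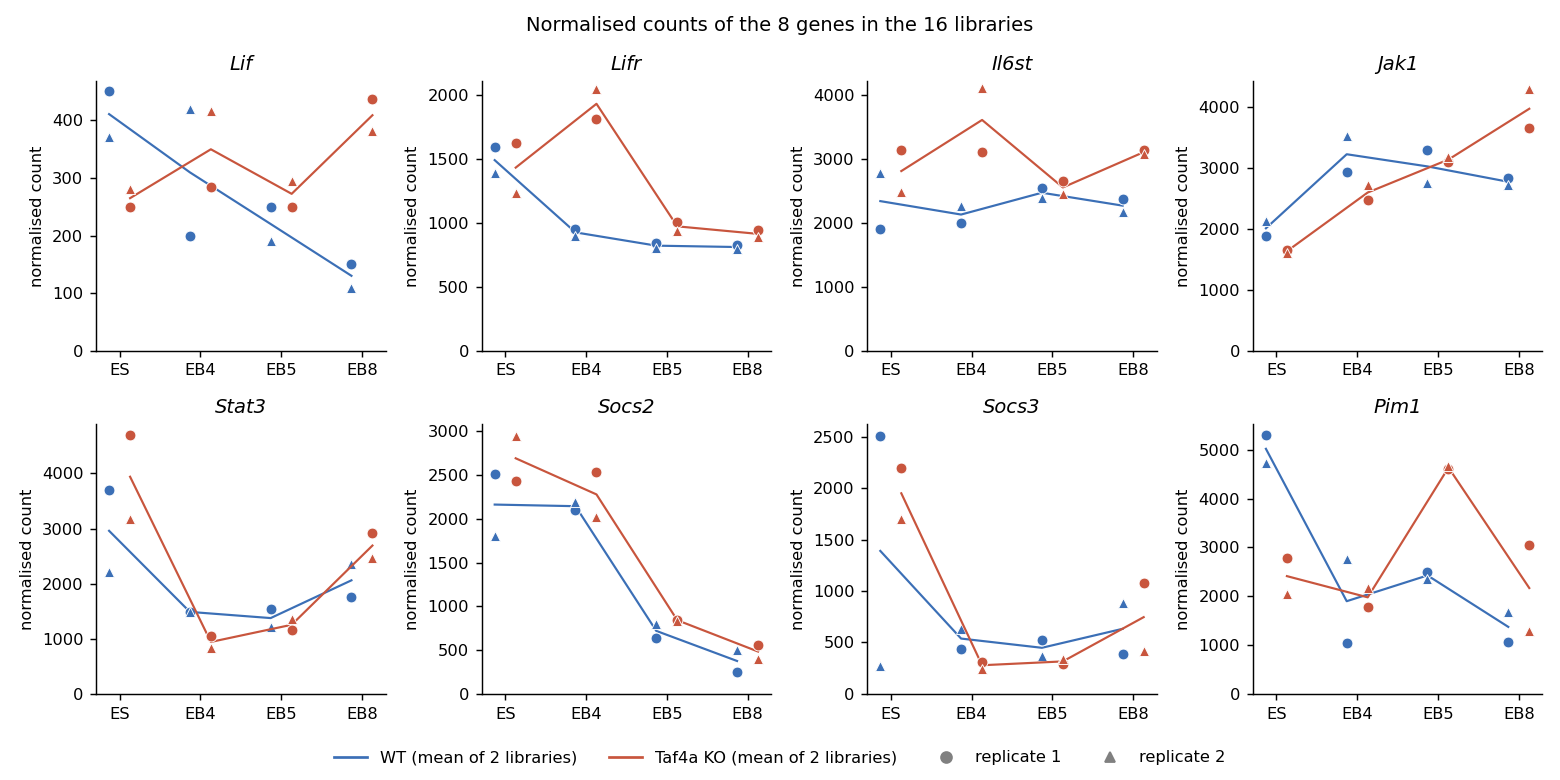
Normalised counts (linear axis from 0) of the 8 genes at ES, EB4, EB5 and EB8, with 1 point for each of the 16 libraries (circles replicate 1, triangles replicate 2) and lines through the means of the 2 libraries of a group. Lif ended at 109 and 151 in WT but at 381 and 437 in KO, Lifr peaked in KO EB4 at 1819 and 2049, and Socs2 fell in both genotypes.

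KO was compared with WT at each stage to ask which of these genes differ between the genotypes and when. In ES none of the 8 genes was called at an adjusted p below 0.05 (limma on log2(normalised count + 1)), and neither was any other gene (0% of all genes tested). At an unadjusted p below 0.05 there were 1 of the 8 (Pim1) and 1846 of the 16124, and DESeq2 on the recovered reads called none of the 8 and 476 of all genes. At EB4 the 2 receptor genes, Lifr and Il6st, were higher in KO, so that 2 of 8 were called against 6.12% of all genes. At EB5 0 of 8 were called, against 4.34%, and none had an unadjusted p below 0.05. At EB8 Lif and Jak1 were higher in KO, which is 2 of 8 against 22.9% of all genes and a share close to that background. No gene of the 8 was called lower in KO at any stage. The groups did not overlap for 3 of 8 genes in ES, 5 in EB4, 4 in EB5 and 5 in EB8, where 39.7%, 51.9%, 54.9% and 63.9% of all genes did not. The median log2 change of the 8 genes was 0.11, 0.15, 0.15 and 0.44 from ES to EB8, while that of all genes lay between -0.03 and 0.00.

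**Figure D2:**
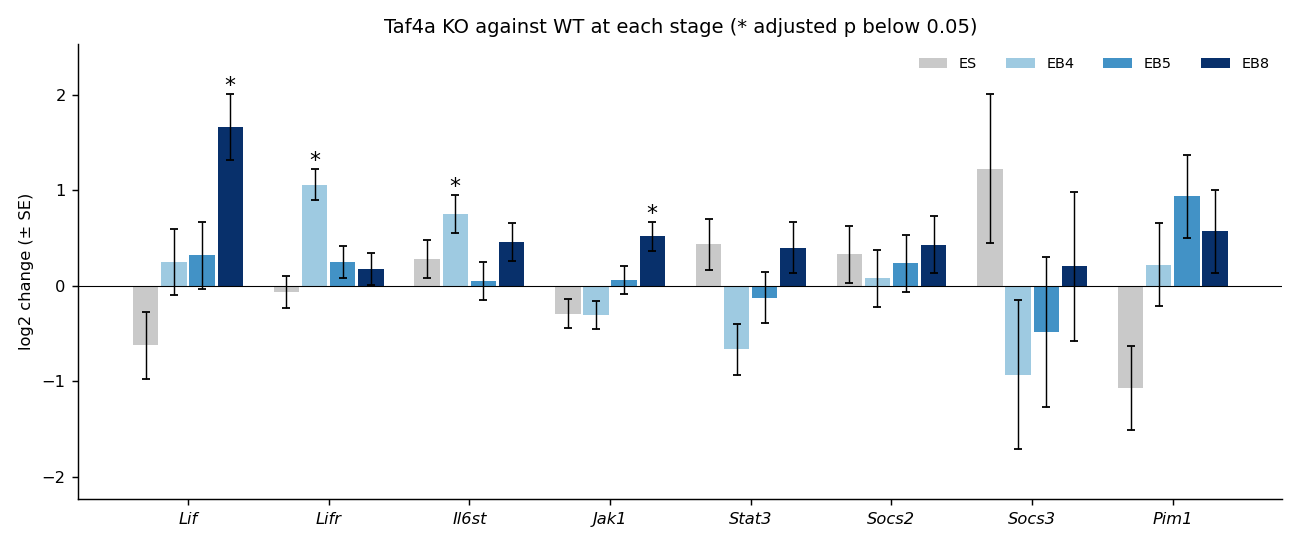
Fitted log2 change of KO against WT (bars, with the standard error) for each of the 8 genes at the 4 stages; a star marks an adjusted p below 0.05. Starred are Lifr (1.06) and Il6st (0.75) at EB4, and Lif (1.66) and Jak1 (0.51) at EB8.

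The stages were compared within each genotype to follow the withdrawal from the ES culture and the treatment with retinoic acid. In WT, changes from ES cannot be told apart from the possible difference of line described above. From ES to EB4, WT had 4 of 8 genes called (Lifr, Stat3 and Pim1 lower, Jak1 higher) against 16.5% of all genes, and KO had 2 of 8 (Stat3 lower, Jak1 higher) against 3.5%. From EB4 to EB5, Socs2 was called lower in WT, 1 of 8 against 3.73%, and Socs2 and Lifr were lower in KO, 2 of 8 against 2.51%. From EB4 to EB8, WT had 2 of 8 (Lif and Socs2, both lower) against 27.2%, and KO had 4 of 8 (Lifr and Socs2 lower, Stat3 and Jak1 higher) against 18.5%. The EB4 libraries are shared by these comparisons. The difference between the genotypes in the change was tested by interaction terms. From ES to EB4 no gene of the 8 was called, and 0% of all genes (2 of 8 and 1129 of 16124 at an unadjusted p below 0.05). DESeq2 called Lifr and 112 of all genes there. From EB4 to EB8 no gene of the 8 was called by limma against 2.75% of all genes, with 4 of 8 and 2658 of 16124 at an unadjusted p below 0.05. DESeq2 called Lifr and Jak1 and 1061 of all genes there.

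The term from ES to EB8 was added after the values had been seen. It called Lif and Jak1, 2 of 8 against 7.29% of all genes. Without WT ES replicate 2, which stood apart from the other WT libraries in Ddx3y, Lif was still called (2.43) and Jak1 was not (0.72). Without it the fall from ES to EB4 in WT was -0.78 for Lifr and -1.31 for Stat3, and the rise of Jak1 was 0.77. These were still called, but the fall of Pim1 was not. Without WT ES replicate 1, none of these changes from ES to EB4 in WT was called.

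**Figure D3:**
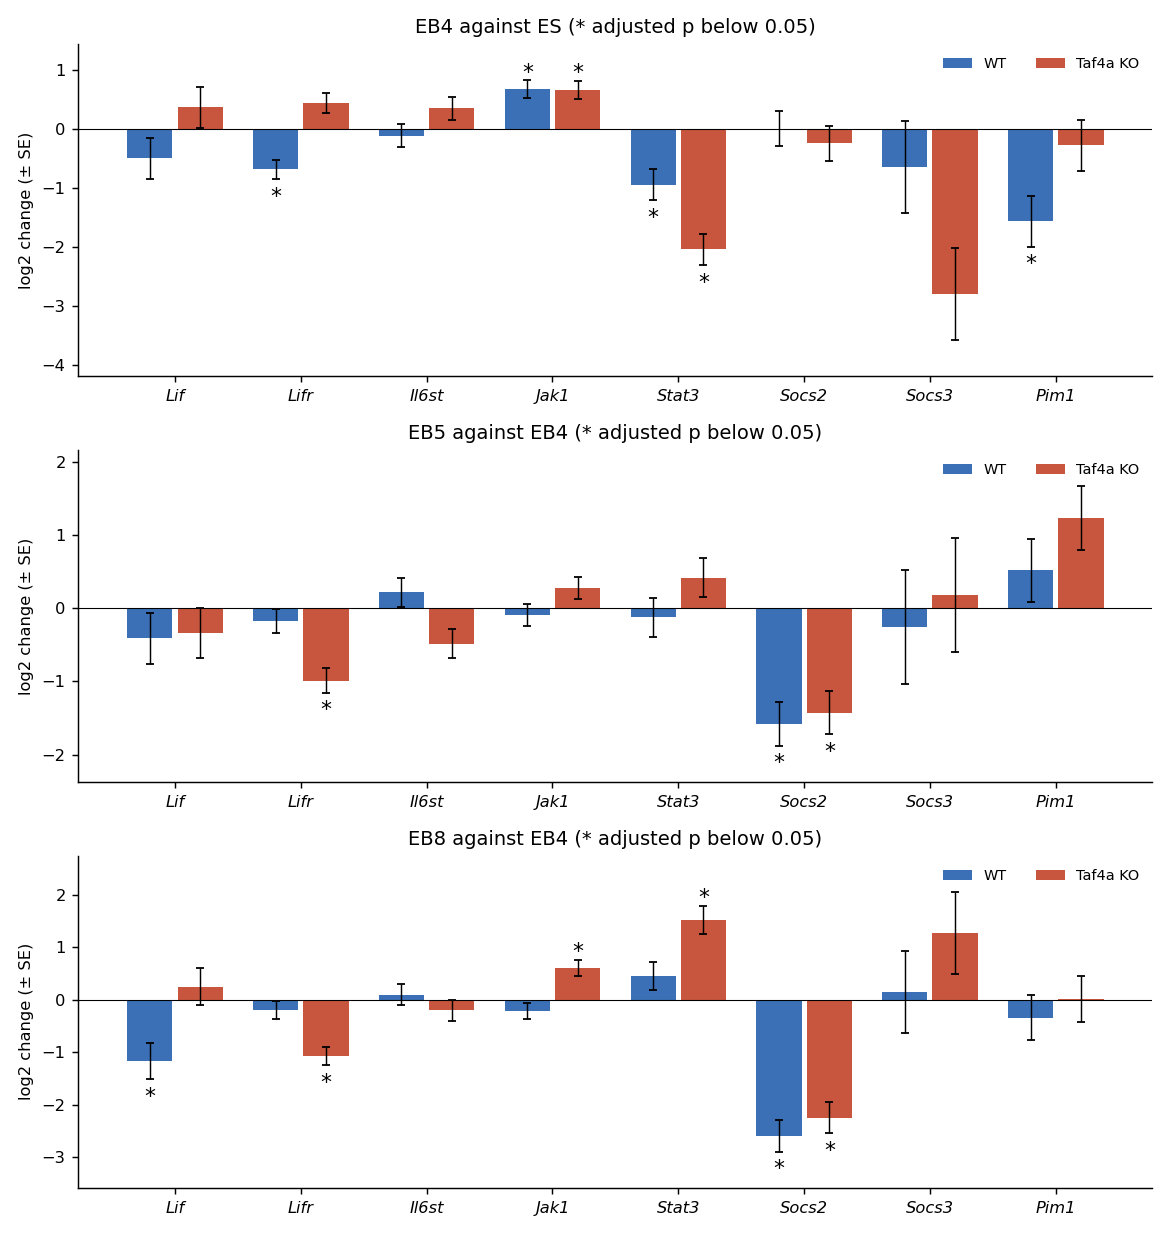
Fitted log2 change between stages in WT and KO (bars, with the standard error) for the 8 genes; a star marks an adjusted p below 0.05. Socs2 fell in both genotypes after EB4, and Stat3 fell by 0.94 in WT and fell by 2.04 in KO from ES to EB4 and rose by 1.52 from EB4 to EB8 in KO.

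Lif (chromosome 11, 4157560 to 4172517, plus strand, NCBI37) encodes the ligand itself. WT libraries stood at 451 and 371 normalised counts in ES, 199.5 and 420.3 in EB4, 250.3 and 190.0 in EB5, and 151 and 109 in EB8. KO libraries stood at 249.9 and 280.2 in ES, 284 and 416 in EB4, 250.3 and 295 in EB5, and 437 and 381 in EB8. WT EB8 was the lowest group and lay apart from every other, while the KO EB8 libraries were level with WT ES. At EB8 Lif was 3.16-fold higher in KO (log2 change 1.66, SE 0.35, limma adjusted p = 0.0052). In WT it fell by 1.17 from EB4 to EB8 (SE 0.35, adjusted p = 0.0258), where the EB4 libraries differed from each other by more than those of any other group. Without WT EB4 replicate 2 that change was -0.63 (adjusted p = 0.215) and without WT EB8 replicate 2 it was -0.93 (0.168). In KO the same change was 0.25 (adjusted p = 0.668). In ES, where LIF was in the medium, both KO libraries were below both WT libraries, but the change of -0.63 was not called (adjusted p = 0.538). The change from ES to EB8 differed between the genotypes by 2.29 (SE 0.49, adjusted p = 0.0172), and 17 of the 20 other settings called it. It was 2.05 without WT EB8 replicate 2 (adjusted p = 0.07), 2.20 without KO ES replicate 1 (0.0691) and 2.19 without KO EB8 replicate 1 (0.058). Without WT EB8 replicate 2 the KO against WT change at EB8 was 1.43 with an adjusted p of 0.0525.

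Fibroblasts, endoderm and immune cells are other cells that could bring Lif RNA. In ES, grown on feeders, the summed count of 10 listed fibroblast markers was 1455 and 2943 in WT, 373 and 788 in KO. These sums did not overlap, and Lif was lower in KO there too. The part of feeders in that difference, or in the change from ES to EB8, was not tested. At EB8 the summed count of 10 of 10 listed fibroblast markers was 3610 and 4334 in WT and 2164 and 5174 in KO, and that of 8 of 8 endoderm markers was 2386 to 2824 in WT and 1749 to 1897 in KO, with none of them at 0 in both libraries of either group. The 4 immune markers summed to 184 to 226 in WT and 321 to 522 in KO, most of it Cd68, which is not restricted to immune cells, and Ptprc was at 0 in all 4 libraries. At EB8 the fibroblast sums overlapped, the endoderm sums were lower in KO and the immune sums were higher in KO. Single fibroblast markers went both ways. Pdgfrb stood at 304.5 and 357.9 in WT EB8 and at 609.8 and 617.8 in KO EB8. Dcn stood at 68.3 and 148.2 against 10.6 and 36.2. Which cells brought the Lif RNA was not tested. At EB8 the summed count of the pluripotency markers was higher in KO, as Lif was, although Sox2 overlapped between the genotypes. Within KO the summed count of these markers went from 105386 and 111461 in ES to 29904 and 30086 in EB8. Lif was higher in KO EB8 than in KO ES. The part of these markers in the difference was not tested.

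Promoter sequences of the ligand, the transcription factor and the inhibitor that is its textbook target are shown to compare them for the Stat3 recognition motif. They are the 250 bases before the gene start in RefSeq (GRCm38.p6), written 5′ to 3′ along the gene, with any match to TTCNNNGAA in capitals.
Lif, chr11:4257318-4257567, plus strand: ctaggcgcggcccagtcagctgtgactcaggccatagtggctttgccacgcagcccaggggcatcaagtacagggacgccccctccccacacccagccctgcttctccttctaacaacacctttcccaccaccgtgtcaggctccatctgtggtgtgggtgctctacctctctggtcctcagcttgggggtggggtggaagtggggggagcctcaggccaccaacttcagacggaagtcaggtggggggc
Stat3, chr11:100939541-100939790, minus strand: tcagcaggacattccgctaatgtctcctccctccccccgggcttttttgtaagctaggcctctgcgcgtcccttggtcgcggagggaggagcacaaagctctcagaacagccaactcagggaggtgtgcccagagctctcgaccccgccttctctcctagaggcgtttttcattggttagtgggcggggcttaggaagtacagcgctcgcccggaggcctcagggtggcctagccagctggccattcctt
Socs3, chr11:117969367-117969616, minus strand: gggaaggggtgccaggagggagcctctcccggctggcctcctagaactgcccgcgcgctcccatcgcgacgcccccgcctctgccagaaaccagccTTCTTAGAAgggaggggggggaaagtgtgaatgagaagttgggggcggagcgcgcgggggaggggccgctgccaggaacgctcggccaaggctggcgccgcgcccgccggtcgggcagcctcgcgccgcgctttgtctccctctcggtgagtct
The search covered the 300 bases from 250 before to 50 after the start, and the motif reads the same on both strands. The table held 9 windows of 7 of the 8 genes, and Socs2 had no entry. The motif was in 1 of the 9 windows, that of Socs3 (TTCTTAGAA, starting 154 bases before the gene start), against 8.30% of 32851 windows of that length. A match of these letters is no evidence of binding.

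Lifr (chromosome 15, 7079559 to 7147489, plus strand) encodes the chain that recognises LIF. In WT the counts were 1593 and 1393 in ES, 952 and 902 in EB4, 841 and 805 in EB5, and 832 and 793 in EB8. In KO they were 1630.4 and 1239 in ES, 1819 and 2049 in EB4, 1009.7 and 939 in EB5, and 943 and 887 in EB8. The KO EB4 libraries were the highest of all 16. Those of WT EB4 lay below WT ES and just above WT EB5 and WT EB8, without overlap. The further changes in WT from EB4, -0.17 to EB5 and -0.19 to EB8, were not called. In WT Lifr fell by 0.68 from ES to EB4 (SE 0.17, limma adjusted p = 0.0171), and in KO the change was 0.44 (adjusted p = 0.151). At EB4 Lifr was therefore 2.08-fold higher in KO (log2 change 1.06, SE 0.17, adjusted p = 0.0086). It then fell in KO by 0.99 to EB5 (adjusted p = 0.0074), and at EB5 and EB8 the KO libraries stood just above the WT libraries, with changes of 0.24 and 0.17 that were not called (adjusted p = 0.448 and 0.498). Between EB4 and EB8 Lifr fell by 1.08 in KO (SE 0.17, adjusted p = 0.0014), which was called under all 16 other settings. The genotypes differed in the change from ES to EB4 by 1.13 (SE 0.24), with an adjusted p of 0.357 in limma and 0.0014 in DESeq2. From EB4 to EB8 they differed by -0.89 (adjusted p = 0.0724), and with the replicate number as a block within genotype by the same size at an adjusted p of 0.0482. The call at EB4 was lost without KO EB4 replicate 2 (0.97, adjusted p = 0.109) and in a fit of the 2 compared groups alone (adjusted p = 0.141). In WT, the fall from ES to EB4 was not called without WT ES replicate 1 (-0.59, adjusted p = 0.0725), without WT EB4 replicate 1 (-0.72, 0.054) or without WT EB4 replicate 2 (-0.64, 0.0844).

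Il6st (chromosome 13, 113265216 to 113297068, plus strand) encodes gp130, the signalling chain shared by the receptors of the whole cytokine family. It varied least of the 8 genes, 1.69-fold between its highest and lowest group mean. WT libraries stood at 1907 and 2783 in ES, 2001 and 2267 in EB4, 2555 and 2397 in EB5, and 2370.1 and 2177 in EB8. KO libraries stood at 3143 and 2488 in ES, 3117 and 4116 in EB4, 2663 and 2455 in EB5, and 3144 and 3079.6 in EB8. KO was above WT without overlap at EB4 and EB8. At EB4 it was 1.68-fold higher in KO (log2 change 0.75, SE 0.20, limma adjusted p = 0.046). That call was made under 10 of 16 other settings, and the adjusted p ranged from 0.00798 to 0.36. The change was 0.55 without KO EB4 replicate 2, 0.66 without WT EB4 replicate 1 and 0.84 without WT EB4 replicate 2, none of them called. At EB8 the change was 0.45 (adjusted p = 0.119), and it was called with upper-quartile rescaling (0.60, adjusted p = 0.0483) and quantile normalisation (0.62, 0.0367). No change between stages was called in either genotype.

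Jak1 (chromosome 4, 100824972 to 100937887, minus strand) encodes the kinase bound to gp130. Raver2 and 2 other annotated genes overlap it, and the use of strand in counting is not given in the sources used here. WT libraries stood at 1887 and 2128 in ES, 2923 and 3520.3 in EB4, 3287 and 2757 in EB5, and 2824 and 2716 in EB8. KO libraries stood at 1654 and 1608 in ES, 2465 and 2723 in EB4, 3101 and 3169 in EB5, and 3647 and 4288 in EB8. KO was below WT without overlap in ES and EB4 and above it without overlap in EB8. In both genotypes Jak1 rose from ES to EB4, by 0.68 in WT (SE 0.15, limma adjusted p = 0.0117) and by 0.67 in KO (SE 0.15, adjusted p = 0.0347), and the difference between these changes was -0.01 (SE 0.21). The rise in KO was not called when any 1 of its 4 libraries was left out (adjusted p = 0.124 to 0.195), nor was that in WT without WT ES replicate 1 (0.0506) or WT EB4 replicate 2 (0.0859). Jak1 then rose further in KO, from EB4 to EB8 (0.61, adjusted p = 0.0165), while the change in WT was -0.21 (adjusted p = 0.331). Jak1 was 1.43-fold higher in KO at EB8 (log2 change 0.51, SE 0.15, adjusted p = 0.0285). The change from EB4 to EB8 differed between the genotypes by 0.82 (SE 0.21), with an adjusted p of 0.0658 in limma and 0.0068 in DESeq2. From ES to EB8 the difference was 0.81 (SE 0.21, adjusted p = 0.041). The call at EB8 was lost without WT EB8 replicate 1 (adjusted p = 0.0862), WT EB8 replicate 2 (0.127) or KO EB8 replicate 2 (0.178). The rise from EB4 to EB8 in KO was lost without KO EB4 replicate 1 (0.0989), KO EB4 replicate 2 (0.0517) or KO EB8 replicate 2 (0.119). The call from ES to EB8 was lost without any of WT ES replicate 2 or the WT EB8, KO ES and KO EB8 libraries (adjusted p = 0.0552 to 0.124), and kept without WT ES replicate 1.

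Stat3 (chromosome 11, 100746412 to 100800854, minus strand), whose end overlaps Stat5a on the other strand, encodes the factor that carries the signal to the nucleus. The WT libraries held 3703 and 2216 in ES, 1481 and 1495 in EB4, 1534 and 1218 in EB5, and 1758 and 2364 in EB8. The KO libraries held 4699 and 3181 in ES, 1050.3 and 836 in EB4, 1151 and 1359 in EB5, and 2925 and 2459 in EB8. In both genotypes the ES libraries stood above those of EB4 and EB5, while WT EB8 replicate 2 was above WT ES replicate 2. From ES to EB4 Stat3 fell by 0.94 in WT (SE 0.27, limma adjusted p = 0.031) and fell by 2.04 in KO (SE 0.27, adjusted p = 0.0042). The fold of KO EB4 to KO ES was 0.243. The fall in WT was -0.57 without WT ES replicate 1 (adjusted p = 0.193), and it was not called without either EB4 library. That in KO was -2.21 without KO EB4 replicate 1 (adjusted p = 0.0627). From EB4 to EB8 Stat3 rose 2.86-fold in KO (1.52, SE 0.27, adjusted p = 0.0028), under all 16 other settings, and the change in WT was 0.45 (adjusted p = 0.232). The libraries of KO lay below WT at EB4 and above WT at EB8, but neither difference was called (-0.67, adjusted p = 0.158, and 0.40, adjusted p = 0.313). The difference between the genotypes in the change from ES to EB4 was -1.10 (SE 0.38, adjusted p = 0.586) and from EB4 to EB8 1.06 (SE 0.38, adjusted p = 0.168).

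Socs3 (chromosome 11, 117827393 to 117831361, minus strand) encodes an inhibitor that binds gp130 and the JAK kinases and is made in response to Stat3. Socs3 counts in WT were 2507 and 272 in ES, 441 and 635 in EB4, 526 and 370.1 in EB5, and 385 and 879.8 in EB8. Those in KO were 2196 and 1702 in ES, 311 and 246 in EB4, 291 and 340.4 in EB5, and 1074 and 418 in EB8. The 3 highest libraries of the 16 were ES libraries, while of all libraries only KO EB4 replicate 2 was lower than WT ES replicate 2. The standard error of 0.78 for Socs3 was the largest of the 8 genes. No comparison called Socs3 in limma. In KO the change from ES to EB4 was -2.80 (adjusted p = 0.0688), with the libraries apart, and DESeq2 called it (adjusted p = 0.00205). In WT that change was -0.64 (adjusted p = 0.61), and -2.24 without WT ES replicate 2 (adjusted p = 0.0264). The KO against WT change in ES was 1.23 (adjusted p = 0.6), and 2.83 without WT ES replicate 1 (0.0492). At EB4 and EB5 both KO libraries lay below both WT libraries, with changes of -0.93 and -0.49 that were not called (adjusted p = 0.516 and 0.768).

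Socs2 (chromosome 10, 94847996 to 94879814, minus strand) encodes an inhibitor best known from growth hormone signalling. In WT, Socs2 stood at 2519 and 1810 in ES, 2103 and 2189 in EB4, 644 and 797 in EB5, and 249.9 and 503 in EB8. In KO it stood at 2439 and 2947 in ES, 2539.8 and 2021 in EB4, 849 and 837 in EB5, and 564 and 404 in EB8. It had the widest range of the 8 genes, 7.15-fold between group means, and both genotypes went down in the same order after EB4. On the first day of retinoic acid Socs2 fell by 1.58 in WT (SE 0.30, limma adjusted p = 0.0107) and fell by 1.43 in KO (SE 0.30, adjusted p = 0.0252). From EB4 to EB8 it fell by 2.59 in WT (adjusted p = 6.72e-05) and fell by 2.24 in KO (adjusted p = 0.000508), and both were called under all 16 other settings. The calls from EB4 to EB5 were lost when any 1 of the 4 libraries was left out, with changes of -1.74 to -1.43 in WT (adjusted p = 0.0509 to 0.0782) and -1.59 to -1.26 in KO (0.0817 to 0.153). KO and WT differed by 0.08 to 0.43 at the 4 stages, none of them called (adjusted p = 0.329 to 0.907).

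Pim1 (chromosome 17, 29627757 to 29632390, plus strand), which the annotated gene Gm16912 overlaps, encodes a kinase that supports survival. WT libraries stood at 5309.9 and 4730.3 in ES, 1038 and 2760.1 in EB4, 2505 and 2349 in EB5, and 1059.6 and 1686 in EB8. KO libraries stood at 2785 and 2039.8 in ES, 1779 and 2177 in EB4, 4603 and 4669 in EB5, and 3052 and 1285 in EB8. The highest WT libraries were those of ES, and the highest KO libraries those of EB5. In WT Pim1 fell by 1.57 from ES to EB4 (SE 0.43, limma adjusted p = 0.0293), a change of -0.86 without WT EB4 replicate 1 (adjusted p = 0.209), -1.48 without WT ES replicate 1 (0.1) and -1.65 without WT ES replicate 2 (0.0749). In KO it was -0.28 (adjusted p = 0.774). KO lay below WT without overlap in ES (-1.07, SE 0.43, adjusted p = 0.372) and above it without overlap at EB5 (0.93, SE 0.43, adjusted p = 0.247).

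The ES libraries differed among themselves in genes downstream of LIF. Of 12 listed targets of LIF or Stat3, WT ES replicate 2 was the lowest of the 4 ES libraries for 7 (Klf5, Gbx2, Myc, Junb, Bcl3, Sgk1 and Sall4), against 32.4% of all genes tested. The median of its log2 level relative to the mean of the other 3 was -0.61 over the 12 and 0.02 over all genes. The immediate early gene Junb stood at 379.5 in this library and at 1001 to 1780.3 in the others, and Myc at 460.0 against 1234 to 2477. Stat3 and Socs2 were also lowest there, and Socs3 was 7.73-fold lower than the mean of the other 3. Pramel7, at 268 against 0.8 to 15.0, and Cebpb, at 209.7 against 96.3 to 158, were highest in this library. The comparison is a description of 1 library, chosen after its values were seen.

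**Figure D4:**
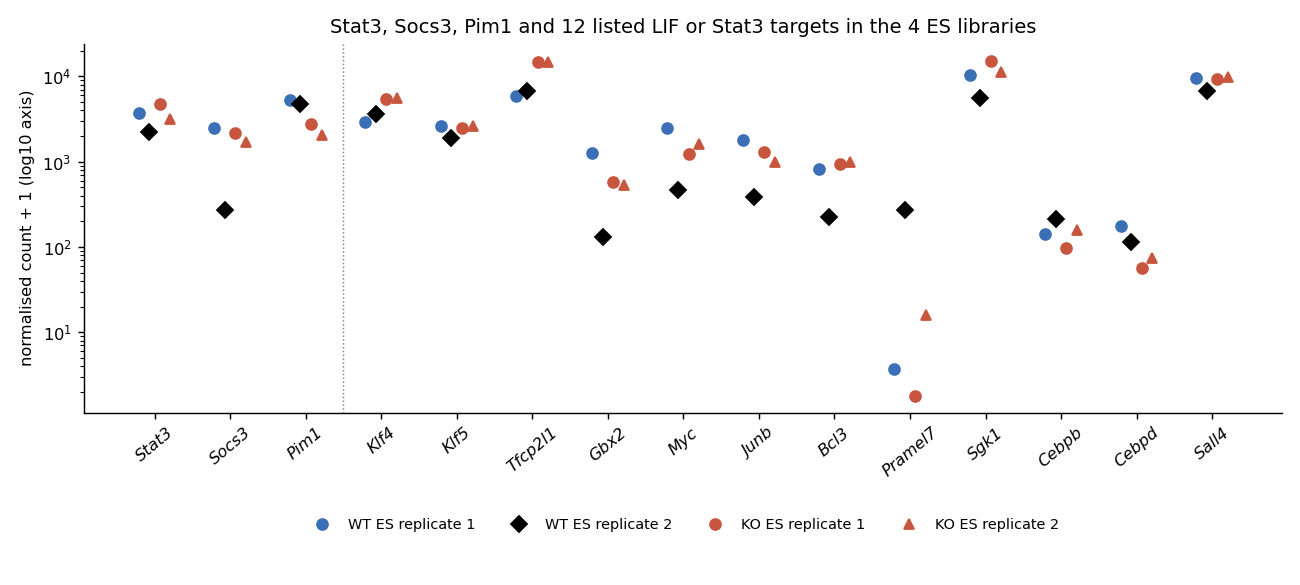
Normalised counts plus 1 (log10 axis) of Stat3, Socs3 and Pim1 (left of the dotted line) and of the 12 listed LIF or Stat3 targets in the 4 ES libraries, 1 point for each library. WT ES replicate 2 (black diamonds) is lowest for Stat3, Socs3 and 7 of the 12 targets and highest for Pramel7 and Cebpb.

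The pathway was then followed through 54 further genes listed by role, 50 of which passed the filter. In ES none was called in KO against WT. At EB4 5 were higher and none lower in KO, at EB5 4 were higher and 1 lower, and at EB8 8 were higher and 2 lower, against the shares of all genes given above (6.12%, 4.34% and 22.9%). The median log2 change of the 50 at EB8 was 0.22. By role, at EB8 the ligands had 1 of 4 lower, the receptor chains 1 of 6 lower, the JAK kinases 1 of 3 higher, the STAT factors 2 of 6 higher, the adaptors and phosphatases 1 of 7 higher, and the targets of LIF or Stat3 4 of 12 higher. None of the 10 SOCS or PIAS inhibitors and neither of the Pim kinases was called.

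The genes lower in KO EB8 were Clcf1 and Cntfr. Clcf1, a ligand of the same family, stood at 134 and 101 in WT EB8 and at 32.7 and 55.4 in KO EB8 (log2 change -1.43, SE 0.40, limma adjusted p = 0.0212). Cntfr, the receptor chain for ciliary neurotrophic factor, which is found on neurons, stood at 4064 and 4697 in WT EB8 and at 1490 and 1194 in KO EB8 (-1.71, SE 0.46, adjusted p = 0.0183). It rose from EB4 to EB8 in both genotypes, by 2.30 in WT and 1.69 in KO (adjusted p = 0.003 and 0.024).

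Among signalling genes higher in KO EB8, Tyk2, a JAK kinase, stood at 646 and 713 in WT EB8 and at 1479 and 1281.5 in KO EB8 (log2 change 1.02, SE 0.19, limma adjusted p = 0.0026). Stat4, a STAT factor of interleukin signalling in lymphocytes, stood at 50.4 and 43.4 against 319.7 and 329 (2.77, SE 0.33, adjusted p = 0.0002), and it was also called higher at EB4 (1.48) and EB5 (1.37). Stat6, the STAT factor of interleukin-4 signalling, stood at 227 and 166 against 828 and 692 (1.96, SE 0.39, adjusted p = 0.0042). Ptpn6, a phosphatase that damps cytokine receptors, stood at 182 and 135.5 against 1065 and 835 (2.58, SE 0.26, adjusted p = 7e-05). It too was higher at EB4 (1.43) and EB5 (1.54).

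The targets of LIF or Stat3 that were higher in KO EB8 were Tfcp2l1, Sgk1, Sall4 and, outside the rule for named genes, Klf5. Tfcp2l1, a transcription factor of the ES state, stood at 345.5 and 494 in WT EB8 and at 5403 and 7489 in KO EB8 (log2 change 3.94, SE 0.31, limma adjusted p = 1.7e-05). Sgk1, a kinase gene, stood at 206 and 173 against 1389.5 and 1244 (2.80, SE 0.38, adjusted p = 0.000455). Sall4, a pluripotency factor, stood at 2259.8 and 2239 against 6405 and 4833 (1.31, SE 0.17, adjusted p = 0.00035). The changes of Tfcp2l1 (1.82) and Sall4 (1.33) from EB4 to EB8 also differed between the genotypes (adjusted p = 0.049 and 0.014). In ES, Tfcp2l1 already stood at 5861 and 6661 in WT and at 14788 and 14795 in KO. Sgk1 was also higher in KO there without overlap (10494 and 5516 against 15272 and 11206), while Sall4 and Klf5 overlapped. None of these differences in ES was called. Over the 12 targets the median log2 change of KO against WT was 0.50 at EB8. In both genotypes no target was called higher from ES to EB4, while 5 of 12 were lower in WT, against 16.5% of all genes called in either direction (1220 of 16124 lower), and 3 of 12 in KO, against 3.5% (160 lower).

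**Figure D5:**
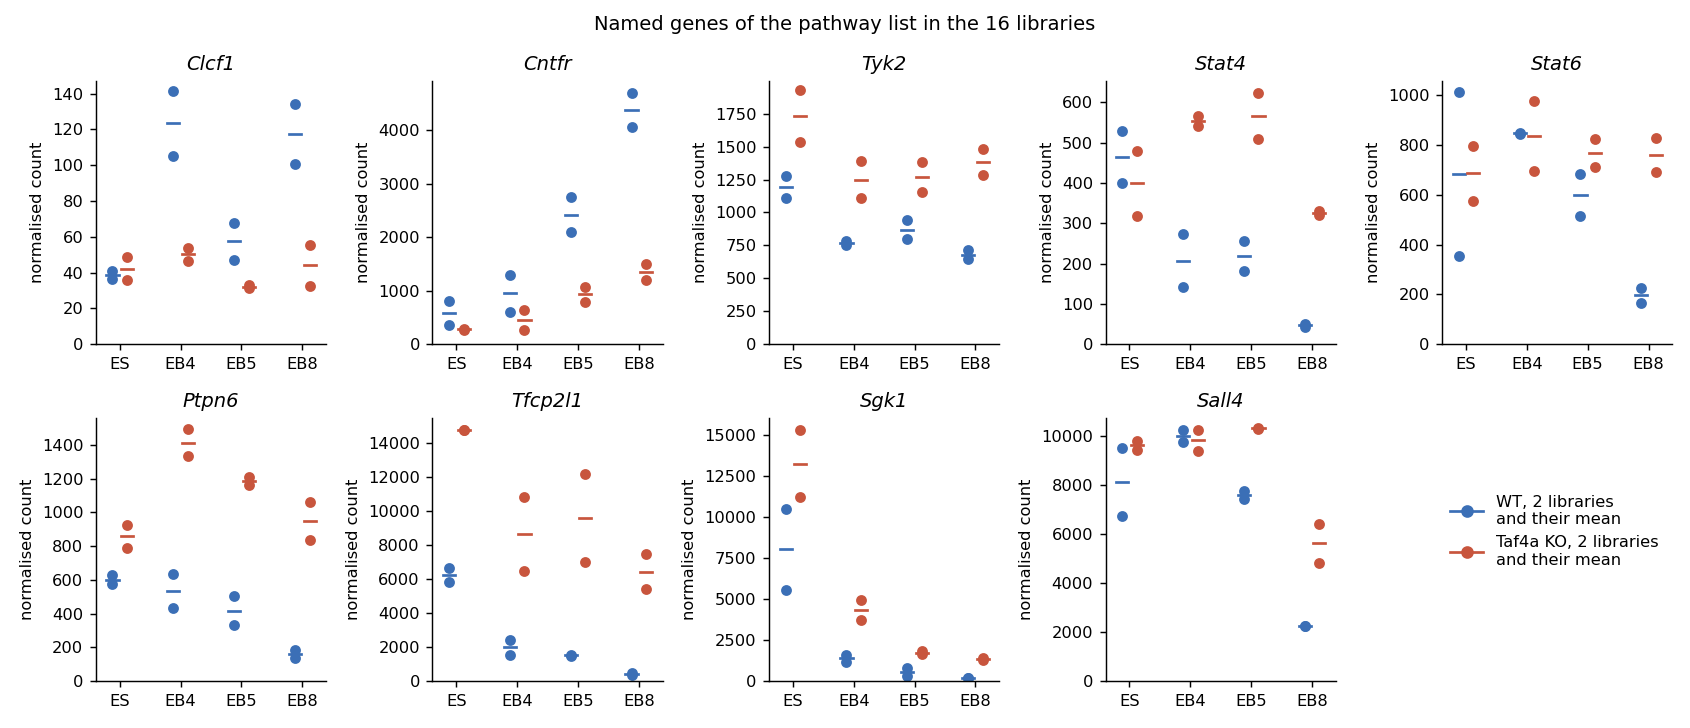
Normalised counts (linear axes from 0) of the 9 named genes of the pathway list in WT and KO at the 4 stages, with 1 point for each library and a dash at the mean of the 2. At EB8 the KO libraries lie below the WT libraries for Clcf1 and Cntfr and above them for the other 7.

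The genes whose 8 group means followed each member most closely were found by Pearson's r across all tested genes whose group means had an SD of at least 0.5 (log2). These values describe 8 points that share their libraries. Stat3 and Socs3 were each other's nearest gene (r = 0.94), and the next for both was Gpx1, a glutathione peroxidase (0.93 and 0.92). Socs2 was followed by Zfp7 (0.99) and the amino acid transporter Slc7a3 (0.98), which went from 9762 in WT ES to 291 in WT EB8 and from 13302 to 844 in KO. Lif was followed by the syndecan gene Sdc4 (0.97), with 1316 in WT EB8 and 5182 in KO EB8, and by Rnf17 (0.96), at 268 and 1741. Lifr was followed by Gm6020 (0.97) and by Rbpj, the transcription factor of Notch signalling (0.97), at 6053 in WT EB4 and 12657 in KO EB4. Jak1 was followed by the phospholipase gene Pld2 (0.97) and by Fgd6 (0.97), Pim1 by Matn4 (0.93) and Hsd17b1 (0.91), and Il6st by D930019O06Rik (0.93) and Gm10474 (0.89). The group means of Matn4, Hsd17b1, Gm6020, D930019O06Rik and Gm10474 were at most 47.7 normalised counts, so these are weakly measured.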

How the data were processed

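Poly-A RNA of 16 libraries was analysed, in 8 groups of 2 taken from the titles. Per the labels and the study, the authors made TruSeq RNA v2 libraries, sequenced single-end reads on a GAIIx and mapped them to mm9 (NCBI37). The submitters' processing notes list CASAVA 1.7 and 1.8, TopHat2 2.0.10, HTSeq 0.5.4p3 and DESeq2 1.0.19. Which annotation release was counted, and whether strand was used, is not given in the sources used here. The deposited values are a normalised signal, the read count of a gene divided by a DESeq2 size factor of the library. Within each library all values (100.0%) were whole multiples of 1 step (0.715 to 1.28, tolerance 0.001 reads), from which reads were recovered. Depth was 22442118 to 40711826 reads in genes and the members held 103 reads or more in every library, so the number of libraries rather than depth sets the precision.

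Genes were tested with limma on the log2 of the normalised count plus a pseudocount of 1, with 8 group means fitted to all 16 libraries, eBayes with trend, on genes with a mean of at least 10 (16124 of 27807), Benjamini-Hochberg adjustment and a threshold of 0.05. Residual and prior degrees of freedom were 8 and 4.27. Fold changes are on that log2 scale and slightly understate low genes. The study used DESeq2, which was run here on the recovered reads as an alternative, as was edgeR's quasi-likelihood test with TMM and with DESeq2 size factors. Other alternatives were pseudocounts of 0.1 and 5, no filter and a mean of at least 50, upper-quartile and quantile normalisation, chromosome centring, the replicate number as a block, over all libraries and within genotype, a fit of the compared groups alone, and each library left out in turn. In data simulated for KO against WT at EB8 (16087 genes), 64% of 4-fold and 4% of 2-fold changes were recovered, with 4 false among 72 calls. In the simulation all genes had a common dispersion and 100 genes changed at each size. The real comparison called 3697 genes, so these shares need not hold for it. An absent call in 2 against 2 libraries is still not read as the absence of a change, and this includes changes of 4-fold. Versions were R 4.3.3, limma 3.58.1, edgeR 4.0.16, DESeq2 1.42.0 and Python 3.11.15.

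Replicate numbers recur in every group. The differences between replicates 1 and 2 correlated across genes at 0.23 to 0.42 in the 6 pairs of KO stages and at 0.52 to 0.61 in the 3 pairs of WT embryoid body stages, but at -0.18 to -0.05 between WT ES and those, and at -0.21 to 0.37 across genotypes. From the data and not from the labels, the numbers were taken as pairing the KO stages with each other and the WT embryoid body stages with each other. WT ES was not taken as paired with the WT embryoid body stages, nor WT with KO. However, WT ES correlated with KO ES at 0.33, with KO EB4 at 0.28 and with KO EB5 at 0.37 (KO EB8 0.06). What WT ES shares with KO was not settled.

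The 8 genes, the list of 54 further pathway genes and the marker lists were chosen with earlier results of these data known. Besides the 8 genes, the text names, for each role of the list, the 3 genes with the largest absolute change among those called in KO against WT at EB8, and, for each of the 8, the 2 genes most like it in group means. Positions are from GENCODE M1 on NCBI37, and promoters from RefSeq on GRCm38.p6.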

Additional observations from a re-analysis of the deposited data

Results flagged for a closer look

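Differences between KO and WT in a change between stages were listed where the interaction term was past the threshold, or where, without passing it, every KO library stood on 1 side of every WT library at a stage and on the other side at the later stage compared, or the libraries of KO and WT moved in opposite directions. All values are log2 differences from the limma fit, KO minus WT. The terms from ES to EB4 and from EB4 to EB8 were planned and the others were added after the values had been seen.

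Past the threshold were Lif from ES to EB8 (2.29, SE 0.49, adjusted p = 0.0172) and Jak1 from ES to EB8 (0.81, SE 0.21, adjusted p = 0.041). In both, KO was below WT without overlap in ES and above it without overlap at EB8.

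Listed by the direction of their libraries, and not past the threshold, were 7 others. Lif went down in WT and up in KO from EB5 to EB8 (1.34, adjusted p = 0.335). Lifr went down in WT and up in KO from ES to EB4 (1.13, adjusted p = 0.357). Il6st went up in WT and down in KO from EB4 to EB5 (-0.70, adjusted p = 1), and the reverse from EB5 to EB8 (0.41, adjusted p = 0.757). Jak1 and Stat3 were lower in KO at EB4 and higher at EB8, with differences from EB4 to EB8 of 0.82 (adjusted p = 0.0658) and 1.06 (adjusted p = 0.168). Pim1 was lower in KO in ES and higher at EB5 (2.01, SE 0.61, adjusted p = 0.377). With 2 libraries in a group such arrangements are common, and 39.7% to 63.9% of all genes did not overlap between KO and WT at a given stage. Groups of 2 libraries are too small for a test of outlying samples.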

How the results depend on the processing

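No result reversed. Over single genes, 1686 values kept their side of the threshold, 60 lost their call and 14 gained one. Of counts of the 8 genes called, 142 stayed within 1.5 times the main count and 14 did not, beside those that left out a library. With no filter on low values 1 was called in KO against WT at EB4, 1 in EB4 against ES in KO and 1 in the difference from ES to EB8. With quantile normalisation 1 was called at EB4, 1 in EB4 against ES in KO and 1 in the difference from EB4 to EB8, which was 1 also with upper-quartile rescaling and with chromosome centring. Chromosome centring gave 1 in the difference from ES to EB8, where Jak1 was lost (0.73, adjusted p = 0.0512). DESeq2 gave 1 in the difference from ES to EB4 and 2 in that from EB4 to EB8. A fit of the compared groups alone gave 0 in KO against WT at EB4 and 1 at EB8.

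The replicate block over all libraries changed no call of the 8 genes, and over all genes it moved KO against WT at ES (18 against 0) and the difference from ES to EB4 (8 against 0). The replicate block within genotype added 1, Lifr in the difference from EB4 to EB8 (-0.89, adjusted p = 0.0482). It moved counts over all genes by more than 1.5 times in EB4 against ES in KO (1291 against 564), EB5 against EB4 in WT (917 against 601) and in KO (724 against 405), and in the differences from ES to EB4 (8 against 0), from EB4 to EB8 (797 against 444) and from ES to EB8 (2156 against 1175). DESeq2 called 2077 genes at EB4 and 1719 at EB5 (limma 986 and 700), and the fit of the compared groups alone 0 and 72.

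Leaving out 1 library gave 0 to 1 called genes in KO against WT at ES (0 with all libraries), 0 to 2 at EB4 (2), 0 to 0 at EB5 (0) and 0 to 2 at EB8 (2). It gave 0 to 4 in EB4 against ES in WT (4) and 0 to 1 in KO (2), 0 to 0 in EB5 against EB4 in WT (1) and 0 to 1 in KO (2), and 1 to 2 in EB8 against EB4 in WT (2) and 3 to 4 in KO (4). For the differences it gave 0 to 0 from ES to EB4 (0) and from EB4 to EB8 (0), and 0 to 3 from ES to EB8 (2). A group left with 1 library is assumed to vary like the others. Leaving out WT ES replicate 1 added Socs3 in ES and removed every call in EB4 against ES in WT.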
